A study of Mus musculus with 12 samples.

Results

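The 10 genes of the cohesin system described here were followed in the copy-number tables of a pair of mouse pancreatic ductal adenocarcinoma (PDAC) lines, 15376T and 14837T. The genes are Stag1, Smc3, Rad21, Rec8, Nipbl, Wapl, Pds5a, Pds5b, Esco1 and Ctcf. They were found by name in the gene column of each segment table, and all 10 were present in each line among 22035 gene names. The list was chosen by function with the segment log2 values of these lines in view, and Stag1 was selected on its deep log2 in 15376T, so the levels below are a description and carry no test.

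Both lines came from tumors of engineered mice on the C57BL/6 background, which carried the alleles tetO_LKrasG12D, ROSA_rtTA, p48-Cre and Trp53L/+, and the cultures were kept in doxycycline. Cre under the p48 (Ptf1a) promoter acts in cells of the pancreatic lineage, and each line stands for the cells grown out of its tumor. The labels give the genotype of both lines as WT, which in this series stands apart from the LIN28B knockout, and give no age. Genomic DNA of each line was captured for its exons and sequenced as 1 library, WES-15376T and WES-14837T, called below by the names of their lines, so no value has a replicate and no p-value is given. The RNA libraries and the tail DNA were not analysed here. Copy-number tables hold no expression, so the labelled cell type could not be checked against marker genes.

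Cohesin is a ring-shaped protein complex that holds sister chromatids together until anaphase and folds chromosomes into loops. Smc1a, Smc3 and the kleisin Rad21 form the ring, and either Stag1 or Stag2 binds to it. Nipbl loads the ring onto DNA, Wapl releases it, Pds5a and Pds5b regulate its stay, Esco1 acetylates Smc3, and the DNA-binding protein Ctcf halts it at loop boundaries. Rec8 replaces Rad21 in germ cells that undergo meiosis. STAG2 is known as a recurrently mutated tumor suppressor in human cancers, and cells without it depend on STAG1.

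The tables divide each chromosome into segments, stretches of adjacent bins that share 1 coverage level, and the log2 of a segment compares its coverage with that of a copy-number reference. Whether the lines share that reference is not given in the sources used here, so their values are set side by side. Differences between the lines given below compare like with like only if the reference was shared. A value of 0 stands for the coverage of the reference, and a log2 of -1 is what 1 copy in place of 2 would give if all cells had lost it. The called segments lay closer together than that. Autosomal segments called at 1 copy had a median log2 of -0.52 in 15376T and -0.39 in 14837T. Those called at 3 copies had 0.44 and 0.34. The reason for this was not tested. The copy numbers called by the authors followed the default limits of the program CNVkit without exception: 0 copies up to a log2 of -1.1, a loss up to -0.25 and a gain above 0.2. The only spread that can be set beside a value is the scatter of the autosomal 2-copy segments around each other, whose log2 had an SD of 0.090 in 15376T (103 segments) and 0.095 in 14837T (96 segments). The mean read depth of those segments was 46.0 and 47.5.

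In 15376T, 4 of the 10 cohesin genes were called lost (Stag1, Wapl, Rec8 and Esco1), 6 were called at 2 copies and 0 were called gained. Over all 22035 gene names, 32.1% were called lost and 8.82% gained in that library. In 14837T, 2 cohesin genes were called lost (Wapl and Rec8), 5 were called at 2 copies and 3 were called gained (Smc3, Nipbl and Pds5b), where 27.7% of all names were called lost and 20.6% gained. The median segment log2 of the 10 genes was -0.11 in 15376T and 0.089 in 14837T, beside -0.029 and -0.049 over all names. The call differed between the lines for 5 of the 10 genes, Stag1, Esco1, Smc3, Nipbl and Pds5b, and for 31.3% of all names. The genes lie on 7 chromosomes, in 9 segments in 15376T, where Rad21 and Nipbl share a segment, and in 10 in 14837T. Because genes of 1 segment carry the same log2, these counts describe segments rather than independent genes.

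**Figure D1:**
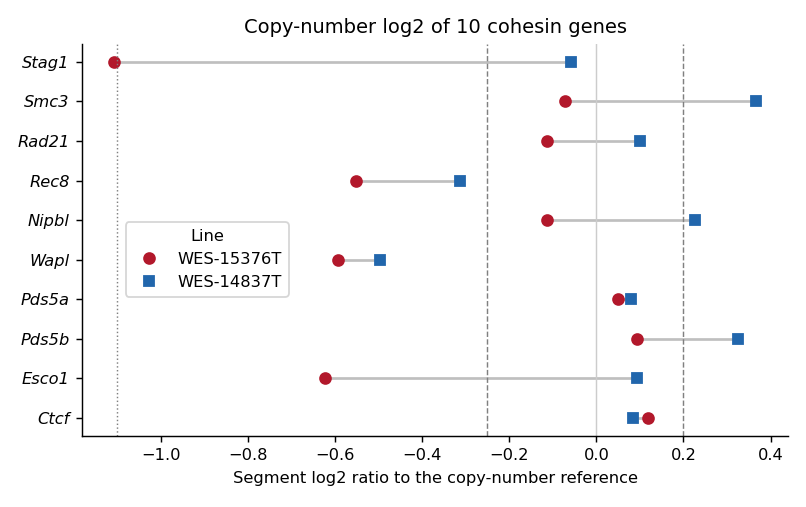
Segment log2 ratio (x axis) of the 10 cohesin genes (y axis) in WES-15376T (circles) and WES-14837T (squares), 1 library each. Dashed lines mark the limits of a loss (-0.25) and a gain (0.2), and the dotted line that of 0 copies (-1.1). Stag1 is at -1.11 in WES-15376T and at -0.058 in WES-14837T, and Pds5a and Ctcf nearly coincide in the 2 libraries.

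Stag1 (gene ID 20842) lies on chromosome 9 of GRCm38 from 100597709 to 100958544, inside a region that in 15376T was lost over a long stretch. Its segment, from 100167403 to 101354423, was called at 0 copies with a log2 of -1.11 over 93 bins and 1.19 Mb. The segment of Stag1 in 14837T ran from 93048986 to 103500224 and was called at 2 copies, with a log2 of -0.058 over 853 bins. The difference between the lines was -1.05, and 99.9% of all names had a smaller absolute difference. This rank follows from the selection of Stag1 on its log2 in 15376T and is not support for it. Stag1 was 1 of 15 names called at 0 copies in 15376T (0.0681% of all names), of which 10 are autosomal. In 14837T 0.0318% of names had that call, none of them a cohesin gene of the list. Of the 183 autosomal segments of 15376T, 2 had a log2 at or below that of the Stag1 segment, itself included.

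The deep value sat on top of a shallower loss. The neighboring segment on the left of Stag1 had a log2 of -0.61 over 1352 bins and the one on the right -0.62 over 873 bins, both called at 1 copy. The Stag1 segment lay 0.50 below the left neighbor and 0.49 below the right one on the log2 scale. In linear terms its coverage was 0.464 of the reference, where the neighbors had 0.657 and 0.652. Of 145 autosomal segments with a neighbor on each side in 15376T, 9 (Stag1 included) stood at least this far below both. Stag1 was selected on its deep log2, so these steps are a description. The B-allele fraction (BAF), which is the share of reads at variant sites that differ from the reference base, was blank for the segment. It was 0.050 and 0.059 in the neighbors.

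**Figure D2:**
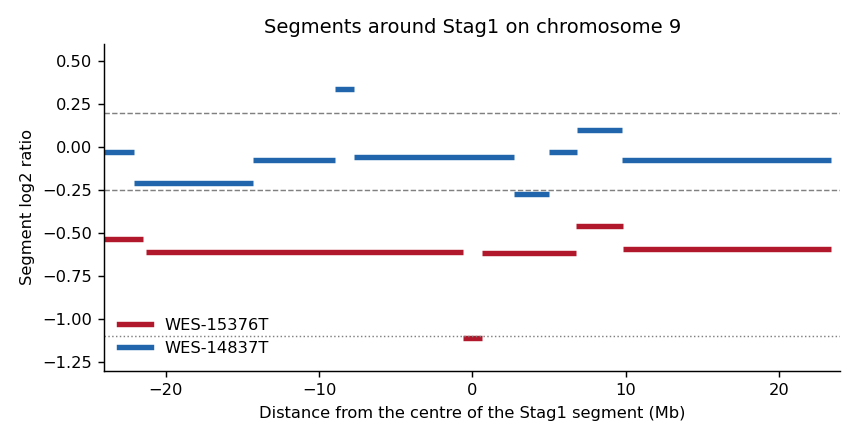
Segment log2 ratio (y axis) on chromosome 9 by distance from the centre of the Stag1 segment in Mb (x axis), in WES-15376T (red) and WES-14837T (blue). Dashed lines mark a loss (-0.25) and a gain (0.2), and the dotted line 0 copies (-1.1). The short red bar at -1.11 is the Stag1 segment, between neighbors at -0.61 and -0.62, and the blue segment over it lies at -0.058.

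The call of 0 copies rests on a narrow margin and on depth that is far from 0. The log2 of -1.1065 lies 0.0065 below the limit of -1.1, and with log2 recentred on the autosomal median it was -1.07, which would be called at 1 copy. The mean read depth of the Stag1 segment was 21.3 in 15376T, against 31.9 and 31.7 in its neighbors. In 14837T the segment with Stag1 had a depth of 47.3. Relative to segments called at 2 copies in the same library, depth over the Stag1 segment was -1.11 on the log2 scale in 15376T and -0.0058 in 14837T. The bins of Stag1 itself, 41 of the 93 in its segment, stood at -0.88 on that scale in 15376T. The raw depths do not use the copy-number reference, but the 2-copy segments that scale them were called against it. The depth for 14837T comes from a segment of 10.5 Mb that runs far past Stag1.

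The Stag1 segment overlaps 19 RefSeq gene names, of which 7 are listed with a depth. All 7 had a low depth of their own in 15376T. From left to right they are Il20rb, a receptor chain for cytokines of the IL-10 family, the adaptor Nck1, Slc35g2, Stag1, the propionyl-CoA carboxylase subunit Pccb, Msl2, a ubiquitin ligase of the MSL complex, and the phosphatase subunit Ppp2r3a. The depth of Stag1 was 25.0 over 41 bins, which make up 44.1% of the bins of the segment. Il20rb had the lowest depth, 20.1 over 8 bins, and Msl2 the highest, 25.2 over 2 bins. On the left of Stag1, Nck1 had a depth of 25.0 over 4 bins and Slc35g2 23.4 over 1 bin. On the right, Pccb had 21.6 over 15 bins and Ppp2r3a 22.6 over 15 bins. A low depth was thus recorded in each of the 7 listed genes. Stag1 stood 0.21 on the log2 scale above the median of the 3 others with at least 5 bins. The log2 depths of those 3 had an SD of 0.084. Above the 2 with at least 10 bins it stood by 0.18. Nck1 and Msl2, with fewer bins, had depths like that of Stag1.

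Depth of a gene is not corrected for how well its exons were captured, so single genes overlap. The 64 genes with at least 5 bins listed within 5 Mb outside the segment had depths from 16.3 to 53.0, with a median of 35.0, and 12 of them were below Stag1. Of the 7 listed genes of the segment, 4 have at least 5 bins (Il20rb, Stag1, Pccb and Ppp2r3a). Their median depth was 22.1, which is -0.66 relative to the outside median on the log2 scale. Among the outside genes the SD of log2 depth was 0.38. None of these genes is listed for 14837T, because its gene table leaves out segments with an absolute log2 under 0.40, so no gene-by-gene ratio between the lines could be formed here.

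**Figure D3:**
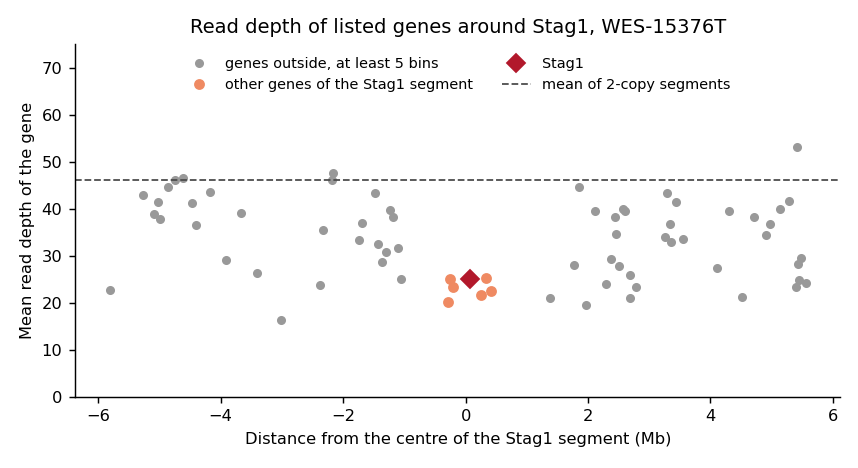
Mean read depth (y axis) of genes listed in WES-15376T by distance from the centre of the Stag1 segment in Mb (x axis): Stag1 (diamond), the other 6 genes of its segment (orange) and 64 genes outside with at least 5 bins (grey). The dashed line is the mean of 2-copy segments, 46.0. The 7 listed genes of the segment lie between 20.1 and 25.2, and the outside genes between 16.3 and 53.0.

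The borders of the Stag1 loss are known no closer than to the nearest bins, and on each side the called border lies between listed genes. Of the 93 bins of the segment, 7 lie in no listed gene. The gaps between listed genes given here may thus be wider than those between the nearest bins. The last listed gene on the left ends at 99875742 (Sox14) and the first listed gene of the segment begins its bins at 100459063, a gap of 0.58 Mb. On the right, the bins of Ppp2r3a end at 101211792 and those of Ephb1 begin at 101923450, a gap of 0.71 Mb. Within Stag1 itself, the first bin begins 107 kb after the RefSeq start of the gene and the last ends 1.94 kb before its end. The beginning of Stag1 therefore has the value of the segment without a bin named for the gene.

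The genes whose values were most like those of Stag1 were sought by the distance between pairs of log2 values. Outside its segment, the nearest were Nbas, Lratd1 and Gm16497 on chromosome 12, which share a log2 of -1.23 in 15376T and 0.203 in 14837T, at a distance of 0.29 on the log2 scale. Next, all at a distance of 0.40, were Evx2, Hoxd11, Hoxd12, Hoxd13 and Lnpk on chromosome 2, with -0.71 and -0.060. This likeness is over 2 libraries and between whole segments.

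Smc3 and Rad21, which form the ring with Smc1a, were both called at 2 copies in 15376T. Smc3 (chromosome 19, 53600396 to 53645831), the ATPase partner of Smc1a, had a segment log2 of -0.071 over 1099 bins in 15376T, called at 2 copies. In 14837T its segment had 0.37 over 829 bins and was called at 3 copies. The difference of -0.44 was larger than the SD of 2-copy segments, and 89.5% of all names differed less. The segment of Smc3 in 14837T begins 2.06 Mb before the gene with a step up of 0.31 from its left neighbor, and in each library it runs to the last bins of chromosome 19. Segment depth followed the same order, 43.6 and 63.5.

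Rad21 (chromosome 15, 51962604 to 51993538), the kleisin of dividing cells, was called at 2 copies in each line. Its segment log2 was -0.11 in 15376T over 2525 bins and 0.10 in 14837T over 430 bins, a difference of -0.21. Rec8 (chromosome 14, 55618002 to 55625395), the meiotic kleisin, was called at 1 copy in either line, at -0.55 over 5311 bins in 15376T and -0.31 over 1641 bins in 14837T. The 2 kleisins thus had different calls within each line. Rec8's own depth in 15376T was 33.3 over 15 bins, close to the 35.5 that was the median of 308 genes with at least 5 bins in its segment. In 14837T its segment stood 0.33 above its left neighbor and 0.10 above its right one, and Rec8 is not listed because of the limit of 0.40.

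Nipbl (chromosome 15, 8289824 to 8465315), the loader, shared the segment of Rad21 in 15376T, at -0.11. In 14837T a border at 41788512 split that stretch, and Nipbl lay in the part with a log2 of 0.23 over 2078 bins, called at 3 copies, while Rad21 lay beyond it at 0.10. The border step was 0.13, little more than the SD of 0.095 among 2-copy segments, and the gain of Nipbl stood 0.028 above its limit of 0.2. With a limit of 0.3 on the absolute log2, Nipbl was not called gained. The calls of 3 for Nipbl and 2 for Rad21 in 14837T are separated by a difference of that size.

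Wapl (chromosome 14, 34672379 to 34747983), the release factor, was called at 1 copy in each line. Its segment log2 was -0.59 over 634 bins in 15376T and -0.50 over 574 bins in 14837T, and the difference of -0.095 was about the size of the SD. In 15376T the Wapl segment began with a step of -1.31, the largest at the border of any of the 10 genes in either library. Its left neighbor there lay above the gain limit of 0.2, so this step does not measure the loss of Wapl alone. In 14837T the step at the same side was -0.16. Wapl was the only one of the 10 genes with an own depth in both gene tables, 43.7 in 15376T and 51.2 in 14837T, each over 20 bins. Scaled by the depth of 2-copy segments, the log2 ratio of these depths was -0.18, which is -0.086 away from the difference of the segments. Over 1995 genes listed in both tables with at least 5 bins this deviation had an SD of 0.15. That is more than the segment difference of -0.095, and the segment level itself includes the bins of Wapl. The ratio therefore could not show whether Wapl departs from its segment. Within each line, the raw depth of Wapl lay near that of 2-copy segments. Set against 2-copy segments it was -0.074 on the log2 scale in 15376T and 0.11 in 14837T, while the segments of Wapl had depths of 28.8 and 31.4. Wapl stood 0.28 and 0.41 above the median of the genes with at least 5 bins in its segment, whose log2 depths had an SD of 0.56 and 0.51. Above the genes with at least 10 bins there it stood by 0.46 and 0.68. Own depth is not corrected for how well exons were captured, so it cannot show whether Wapl itself was lost. The call for Wapl is that of its segment in each line.

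Pds5a and Pds5b, related regulators on the same chromosome, had different values in 14837T. Pds5a (chromosome 5, 65605719 to 65698236) was called at 2 copies in either line, at a log2 of 0.049 over 579 bins in 15376T and 0.079 over 297 bins in 14837T, a difference of -0.030. Pds5b (chromosome 5, 150673713 to 150810669), near the far end of the chromosome, had 0.094 over 2811 bins in 15376T, called at 2 copies, and 0.32 over 1191 bins in 14837T, called at 3. Segment depth was 46.3 and 62.7. The segment of Pds5a in 15376T had the highest BAF of the 10 genes, 0.35, and the authors' allele-specific call there was 1 copy of each allele. The BAF of the other segments with a value lay between 0.022 and 0.14.

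Esco1 (chromosome 18, 10566507 to 10610863), the acetyltransferase of Smc3, showed the second largest difference after Stag1. Its segment log2 was -0.62 over 1498 bins in 15376T, called at 1 copy, and 0.093 over 126 bins in 14837T, called at 2. The difference was -0.72, and 98.1% of all names differed less. In 14837T Esco1 lay in a short segment of 1.63 Mb that stood 0.25 above each of its neighbors, while in 15376T it lay in a segment of 28.3 Mb. Its own depth in 15376T was 43.8 over 12 bins, close to the 46.0 of 2-copy segments and above the median of 34.3 of 80 genes in its segment, whose log2 depths had an SD of 0.45. Own depth is not corrected for how well exons were captured, so it cannot show whether Esco1 itself was lost. The call for Esco1 is that of its segment.

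Ctcf (chromosome 8, 105636474 to 105682922), the boundary factor, was called at 2 copies in either line, at a log2 of 0.12 over 1562 bins in 15376T and 0.085 over 1467 bins in 14837T. Its segments had nearly the same extent in the libraries, 7.62 Mb and 7.18 Mb, and similar depths of 51.2 and 52.8. Ctcf alone among the 10 genes was higher in 15376T than in 14837T, by 0.033. Among the 10, 7 genes were lower in 15376T by more than the SD of 0.095, beside 41.8% of all names, and Wapl and Pds5a were lower by less.

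In order of segment log2 in 15376T, Stag1 (-1.11) was followed by Esco1 (-0.62), Wapl (-0.59) and Rec8 (-0.55), then by Rad21 and Nipbl (-0.11), Smc3 (-0.071), Pds5a (0.049), Pds5b (0.094) and Ctcf (0.12). Neighbors in this order differed by more than the SD of 0.090 at 3 of 9 places, Stag1 to Esco1 (0.48), Rec8 to Rad21 (0.44) and Smc3 to Pds5a (0.12). In 14837T the order was Wapl (-0.50), Rec8 (-0.31), Stag1 (-0.058), Pds5a (0.079), Ctcf (0.085), Esco1 (0.093), Rad21 (0.10), Nipbl (0.23), Pds5b (0.32) and Smc3 (0.37). Neighbors among Pds5a, Ctcf, Esco1 and Rad21 there differed by less than the SD of 0.095, as did Pds5b and Smc3, and the gap from Nipbl to Pds5b was 0.097.

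Further genes of the cohesin system, taken from a list written by function, were called lost in 5 of 17 cases and gained in 1 in 15376T, and lost in 2 and gained in 6 in 14837T. Over all names, 32.1% were lost and 8.82% gained in 15376T, and 27.7% and 20.6% in 14837T. Their median log2 was -0.0025 in 15376T and -0.036 in 14837T. The 17 genes lie in 13 segments in 15376T and in 15 in 14837T. Of the 5 losses in 15376T, 3 are on chromosome X, where the sex assumed for the copy-number reference is not given in the sources used here. Stag2, the paralog that binds the ring in place of Stag1, lies on chromosome X from 42149297 to 42277186. Its log2 was -0.253 over 1550 bins in 15376T, called at 1 copy by a margin of 0.0026, and -0.16 over 1527 bins in 14837T, called at 2. After recentring it was -0.21 in 15376T, which would be called at 2 copies, so a loss of Stag2 beside that of Stag1 depends on the centre of the scale. Smc1a, the other ATPase of the ring, and Hdac8, which removes the acetyl mark from Smc3, shared a log2 of -0.56 in 15376T and had -0.16 and -0.088 in 14837T.

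On the autosomes, Esco2, the second acetyltransferase of Smc3, was called at 1 copy in each line (log2 -0.55 in 15376T and -0.41 in 14837T), as was the mitotic kinase Plk1 (-0.53 and -0.46). Cdca5, which encodes sororin and guards cohesion against Wapl, was called at 3 copies in each (0.33 and 0.52). Another 5 genes had a call of 2 copies in 15376T but of 3 in 14837T. Among them Stag3 and Smc1b, meiotic members of the complex, had 0.094 and -0.043 in 15376T and 0.34 and 0.31 in 14837T. Espl1, which encodes separase and cuts the kleisin, had 0.0092 and 0.33. Sgo1, a protector of centromeric cohesin, and the helicase Ddx11 share a segment with -0.0025 and 0.31. Mau2, the partner of Nipbl in loading, was called at 2 copies in each line, at 0.058 and 0.017.

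Condensin and the Smc5/6 complex are related SMC complexes, and of their 15 genes 6 were called lost and 3 gained in 15376T, and 4 lost and 5 gained in 14837T, where the shares over all names were 32.1% and 8.82% in the first and 27.7% and 20.6% in the second. Their median log2 was -0.043 and -0.045. Smc2, an ATPase of condensin, had -0.59 in 15376T and -0.091 in 14837T, while its partner Smc4 was gained in each, at 0.41 and 0.38. Ncapd2 had 0.33 and -0.045, Ncapd3 -0.27 and -0.0030, and Ncaph2 -0.043 and 0.31. Among Smc5/6 genes, Smc5 had -0.030 and 0.36 and Smc6 -0.42 and 0.203. Nsmce1 and Nsmce4a had -0.53 in 15376T and -0.46 and -0.48 in 14837T, and Nsmce3 had -0.53 and -0.36. In 15376T, Nsmce1, Nsmce3, Nsmce4a and Plk1 share 1 segment of chromosome 7, so their losses there are not independent. The 15 genes lie in 13 segments in 15376T and in 15 in 14837T. Nsmce2 was gained in each, at 0.47 and 0.28, and Eid3 had 0.0100 and -0.38. Among these genes and the further cohesin genes, the lowest log2 in 15376T was that of Smc2 at -0.59. As Stag1 was selected on its deep log2, no contrast with it is drawn.

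**Figure D4:**
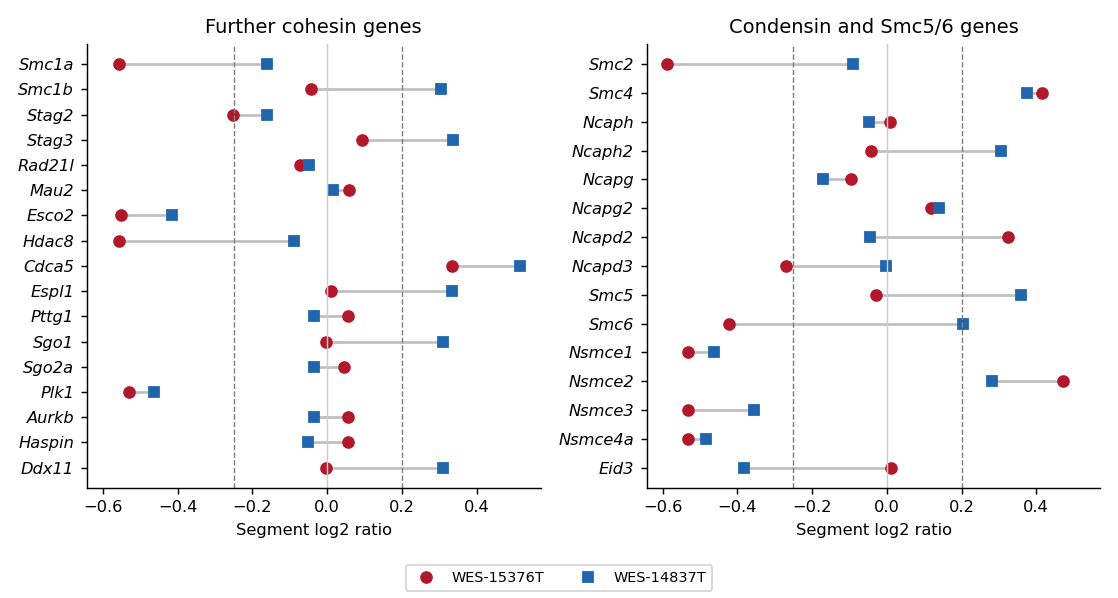
Segment log2 ratio (x axis) of 17 further cohesin genes (left) and 15 condensin and Smc5/6 genes (right) in WES-15376T (circles) and WES-14837T (squares), with dashed lines at the limits of a loss (-0.25) and a gain (0.2). The lowest value is that of Smc2, -0.59 in WES-15376T, and the highest that of Cdca5, 0.52 in WES-14837T.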

How the data were processed

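WES libraries of 15376T and 14837T, 1 per line, were analysed. Exons were captured with a kit designed for human (NimbleGen per the methods, Agilent SureSelect per the labels). The submitters' notes name mm10 (GRCm38) as the build. The aligner, caller and copy-number reference are not given in the sources used here. The deposited log2 values are coverage ratios to that reference, the deposited BAF is a fraction from 0 to 1, the deposited depth is a coverage signal without normalization, and the deposited weight is a score that was not used. Each gene was given its segment by name. For a name in several segments the longest overlap with its RefSeq position (GRCm38.p6) was used, although each of the 10 genes stood in 1 segment. Starts were written counting from 1. Own depths were set against bin-weighted 2-copy segments and against genes with at least 5 bins. Depth is a mean over bins without read counts, so no interval could be given.

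The members and the gene lists were chosen with earlier results of these data known. A gene of the further cohesin list is not reported here and was left out of its counts. The text names the 10 genes, the related genes not at 2 copies in both lines, genes of the Stag1 segment and those nearest to Stag1 in log2. Mau2, Sox14 and Ephb1 were named in addition, after their values were seen. Alternatives tried were limits of 0.3 or 0.5 on the absolute log2, recentred log2, autosomal genes only, other assignment of genes, and other comparison genes or scales for depth. Steps were tested on simulated data and run in Python 3.11.15 using pandas 2.3.3, numpy 2.4.6 and matplotlib 3.10.9.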

Additional observations from a re-analysis of the deposited data

Results flagged for a closer look

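Smc6, an ATPase of the Smc5/6 complex on chromosome 12, was called lost in WES-15376T (log2 -0.42) and gained in WES-14837T (0.203), a difference of -0.63. It was singled out because the lines moved in opposite directions. The gain stands 0.0028 above its limit, and with 1 library per line the difference was not tested.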

How the results depend on the processing

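With calls at an absolute log2 of 0.5, the number of cohesin genes called lost and gained in WES-14837T was 0 and 0 (2 and 3 with the authors' calls), since Wapl at -0.497 and Smc3 at 0.37 lie inside that limit. The share of all names lost there was 2.99% and gained 4.13%, and the share gained in WES-15376T was 2.46%. Set against genes within 5 Mb in place of 2-copy segments, own depth in WES-15376T was -0.45 for Stag1 (-0.88 before), 0.30 for Wapl (-0.074) and 0.41 for Esco1 (-0.071) on the log2 scale. These neighbors were themselves mostly at 1 copy, which raises the values by construction. With calls at an absolute log2 of 0.3, Nipbl (0.23) was no longer called gained in WES-14837T, which left 2 cohesin genes gained. This count is among the 57 of 65 alternative values that stayed within the spread or within 1.5 times. Some of the 65 could not move, so 57 is not a measure of stability. Own depth of Wapl in WES-14837T is also among the 57. It went from 0.11 to 0.57 when set against genes within 5 Mb. Recentring changed the call of 3 named values, Stag1 (0 copies to 1), Stag2 and Ncapd3 (1 copy to 2), all in WES-15376T. The log2 in the gene table equals that of the segment and could not move a value. The smallest segment had 12 bins, so a change over fewer bins, such as that of an exon, may not show as a segment. No paired analysis was possible because neither library has a second sample to pair.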
